A study of Mus musculus with 8 samples.

Results

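Copy number of 10 growth factor receptor genes was followed in 8 mouse livers by array comparative genomic hybridisation: Egfr, Erbb2, Erbb3, Met, Igf1r, Fgfr1, Fgfr2, Fgfr4, Pdgfra and Kdr. The genes were chosen by name, and their 114 probes are those whose gene name in the array's scanner output is one of the 10; the array holds 24783 named autosomal genes and 232626 probes in all. The test DNA of 6 arrays came from hepatocellular carcinomas of FEAT transgenic mice aged 16, 21, 20, 18.5, 22 and 12 months (tumours 1 to 6), FEAT being another name for the methyltransferase gene Mettl13. A seventh array held normal liver of a FEAT transgenic mouse aged 13 months and an eighth normal liver of a wild-type mouse aged 6 months, so neither non-tumour group has a replicate. All mice were male C57BL/6, and every array carried the same kind of reference, normal liver of a wild-type male aged 6 months. The sources used here do not name the promoter of the transgene, and tumour 4 came from an animal with lung metastasis. The FEAT mice were all older than the wild-type mouse, so genotype and age cannot be told apart in that contrast. Genomic DNA holds no expression marker against which the labelled tissue could be checked.

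Receptor tyrosine kinases sit in the cell membrane, bind a growth factor outside the cell and pair up, and their kinase domains then phosphorylate each other and recruit adaptors that pass the signal to the Ras and phosphoinositide 3-kinase pathways. In liver, Egfr and Met carry the main growth signals to hepatocytes during regeneration, Fgfr4 is the fibroblast growth factor receptor most typical of hepatocytes and restrains bile acid synthesis, Kdr marks the endothelium and Pdgfra the mesenchymal cells. In human tumours several of these genes are known for amplification, a gain of many gene copies.

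Each probe gives the log2 ratio of test to reference DNA, after centring the array on its autosomal median, and a gene's value is the mean over its probes. A value of 0 means as many copies as in the reference. In bulk tissue, the number of copies lost and the share of cells that lost them cannot be told apart. The probe noise, the SD between neighbouring probes, ran from 0.22 in tumour 5 and in the wild-type liver to 0.49 in tumour 4. On all 8 arrays the ratio fell as spots grew brighter (r from -0.78 in tumour 4 to -0.26 in the wild-type liver, over about 217339 to 219038 autosomal probes that share the array, with brightness read from the wild-type array alone). In tumour 4 the brightest 20% of all autosomal probes had a median of -0.51 and the dimmest 20% 0.61, against -0.05 and 0.13 in the wild-type liver. Each gene is therefore also given after this curve was taken off, an alternative added after the data were seen. The number of arrays limits the precision of every comparison.

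No receptor gene reached a log2 ratio of 0.3 in a tumour, so none showed a gain of many copies shared by most cells. A gain of many copies in a small share of cells could stay under this level. Over the 6 tumours, the means ran from Fgfr1 at 0.17 ± 0.11 and Egfr at 0.10 ± 0.04, through Met at 0.02 ± 0.03, Erbb2 at -0.01 ± 0.10, Pdgfra at -0.03 ± 0.10, Igf1r at -0.08 ± 0.11, Fgfr2 at -0.10 ± 0.14, Kdr at -0.11 ± 0.11 and Fgfr4 at -0.11 ± 0.12, to Erbb3 at -0.34 ± 0.19 (SD, n = 6). The highest value of any receptor gene in a tumour was 0.28, for Fgfr1 in tumour 3, where a single extra copy in every cell would give 0.58. Of the 9 steps in this order, which these same values set, only those from Egfr to Met (0.07 ± 0.06; SD, n = 6) and from Fgfr4 to Erbb3 (0.23 ± 0.15) were larger than the spread of the difference over tumours, and all other neighbours differed by less. After correction for spot brightness Egfr was the highest at 0.07, Fgfr1 stood at 0.05, and Fgfr4 at -0.10 and Erbb3 at -0.12 lay close together.

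**Figure D1:**
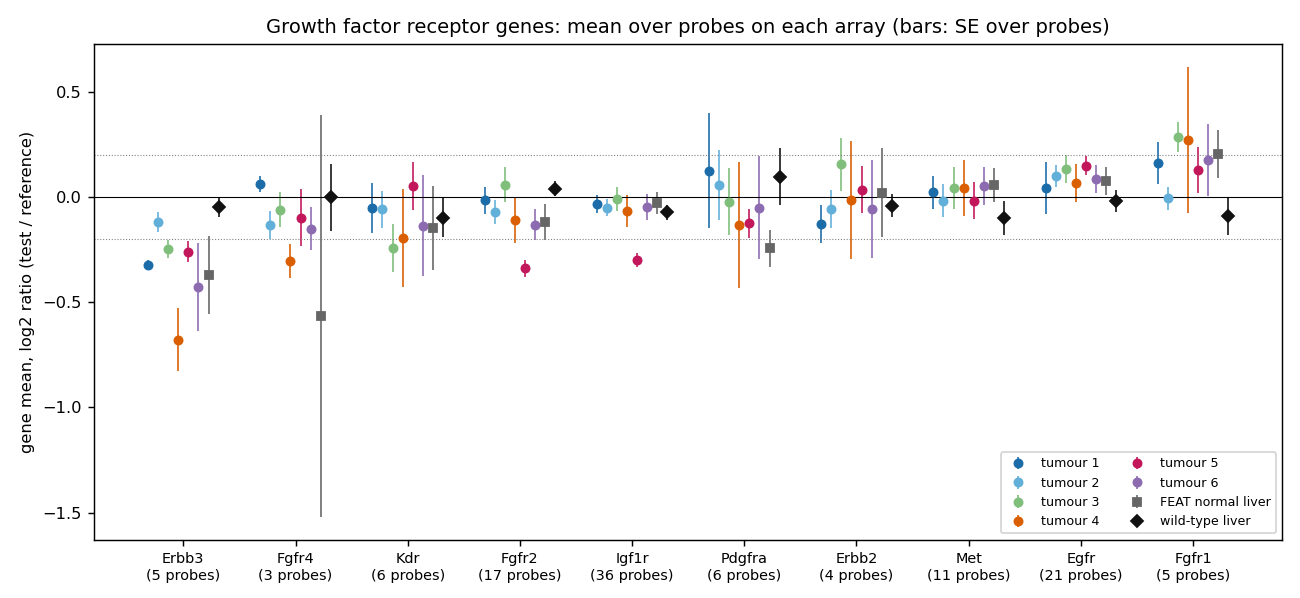
Mean log2 ratio of test over reference for each of the 10 receptor genes on each of the 8 arrays, ordered by the tumour mean; bars are the SE over the gene's probes and dotted lines mark -0.2 and 0.2. Igf1r and Fgfr2 drop in tumour 5 alone, at -0.30 and -0.34, Erbb3 lies below the wild-type liver on all 7 FEAT arrays, and the wide bar of Fgfr4 in the FEAT normal liver comes from 1 of its 3 probes.

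Counted at 0.2 in either direction, the level at which segments were called, 2 of 60 pairs of receptor gene and tumour were higher, against a background of 18.7% of pairs over all 24413 named autosomal genes with a value on every array. Both were Fgfr1, in tumours 3 and 4. At the same level 9 of 60 pairs were lower, against a background of 18.1%. Erbb3 gave 5 of these, in all tumours but tumour 2, and Igf1r and Fgfr2 in tumour 5, Fgfr4 in tumour 4 and Kdr in tumour 3 gave 1 each. Gene means over few probes scatter more, and among genes of 3 to 6 probes, the size of 6 of the receptor genes, the backgrounds were 16.7% higher and 14.3% lower. The share of lower pairs in the receptor genes was thus near the background. Normal liver of the FEAT mouse had 1 receptor gene higher (background 15.9%) and 3 lower (background 16.8%), and wild-type liver none in either direction (backgrounds 10.7% and 10.5%). After correction for spot brightness, 0 pairs were higher (background 11.3%) and 4 were lower (background 16.5%): Igf1r and Fgfr2 in tumour 5 and Fgfr4 and Erbb3 in tumour 4.

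Taking off the level of the chromosome, as the median of its other probes on the same array, separated the genes that moved with their chromosome from those that did not. Then 3 pairs were higher (background 16.8%), all Fgfr1, in tumours 3, 4 and 6, and 6 were lower (background 15.4%): Erbb3 in tumours 1, 3, 4 and 6, Fgfr4 in tumour 4 and Kdr in tumour 3. Igf1r and Fgfr2 in tumour 5 and Erbb3 in tumour 5 no longer reached 0.2. After the brightness correction, 0 pairs were higher (background 8.96%) and 2 were lower (background 13.5%), both Erbb3, in tumours 1 and 4.

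**Figure D2:**
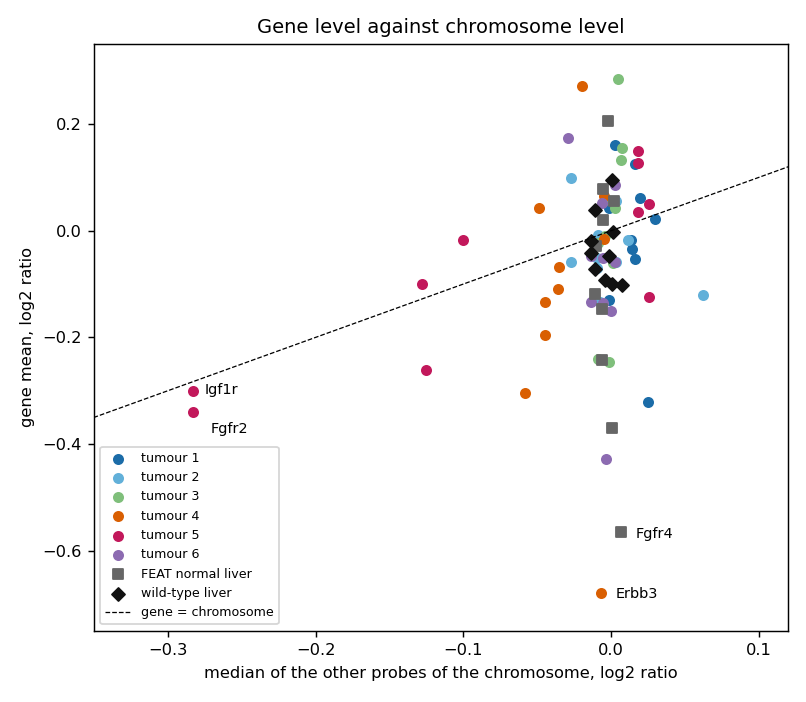
Gene mean against the median of the other probes of the same chromosome, both as log2 ratios, for 10 receptor genes on 8 arrays; the dashed line marks equal values. Igf1r and Fgfr2 in tumour 5 lie near the line at a chromosome level of -0.28, whereas Erbb3 in tumour 4 and Fgfr4 in the FEAT normal liver lie far below it at chromosome levels of -0.01 and 0.01.

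The design sets the 6 tumours against both non-tumour livers. By limma over all 24413 genes, with Benjamini-Hochberg adjustment, 0 genes passed (0% of genes, 616 or 2.52% at an unadjusted p under 0.05), and with the chromosome taken off again 0 passed (721 or 2.95% unadjusted). None of the 10 receptor genes reached an unadjusted p under 0.05 by either measure, and their adjusted p was 0.9999 each. The widest differences were those of Fgfr4 at 0.17 (SE 0.14), Erbb3 at -0.13 (SE 0.15) and Fgfr1 at 0.11 (SE 0.11), followed by Egfr at 0.07 (SE 0.08) and Fgfr2 at -0.06 (SE 0.11). The other 5 genes differed by 0.05 or less in either direction, with SEs from 0.08 to 0.11. With only 2 non-tumour livers of different genotype, these SEs leave room for differences of 0.1 or more. For no receptor gene did all 6 tumours lie outside the values of both non-tumour livers on the same side, where 1.63% of genes lay below both and 2.8% above both.

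Igf1r encodes the receptor of insulin-like growth factors and Fgfr2 a receptor of fibroblast growth factors; both lie on chromosome 7 and both were lower in tumour 5. Igf1r (chr7:63814793-64072450, 36 probes) stood at -0.03, -0.05, -0.01, -0.07, -0.30 and -0.05 in tumours 1 to 6, at -0.03 in normal liver of the FEAT mouse and at -0.07 in wild-type liver. Fgfr2 (chr7:126278886-126427044, 17 probes) stood at -0.02, -0.07, 0.06, -0.11, -0.34 and -0.13 in tumours 1 to 6, at -0.12 in normal liver of the FEAT mouse and at 0.04 in wild-type liver. Tumour 5 was the lowest of the 8 arrays for both genes, and the other 5 tumours overlapped the non-tumour livers. In tumour 5, 33 of 36 Igf1r probes were below 0, against 17 to 23 on the other arrays, and 17 of 17 Fgfr2 probes, against 6 to 12.

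The change followed the chromosome. The median of the other chromosome 7 probes was -0.28 in tumour 5 and between -0.04 and 0.01 on the other 7 arrays, so Igf1r differed from its chromosome by -0.02 and Fgfr2 by -0.06 in tumour 5, with SEs over probes of 0.03 and 0.04. The nearest 100 probes on each side of Igf1r had a median of -0.26 there, and those around Fgfr2 -0.29. Igf1r lay in a segment called lost over 61.9 Mb (chr7:59945130-121859625, 6009 probes, mean -0.25) and Fgfr2 in a separate one over 16.0 Mb (chr7:122655273-138649578, 1726 probes, mean -0.27). In tumour 5, 14.1% of all named genes lay in called losses. A log2 ratio of -0.30 corresponds to 1.62 copies and -0.34 to 1.58 copies for every 2 in the reference, where loss of 1 of 2 copies in every cell would give -1. The values were as low after the brightness correction, when Igf1r stood at -0.31 and Fgfr2 at -0.34 in tumour 5. Neither gene differed between tumours and non-tumour livers, with a difference of -0.03 (SE 0.10) for Igf1r and -0.06 (SE 0.11) for Fgfr2 by limma (adjusted p = 0.9999 each). With the chromosome taken off, Igf1r stood at -0.03 ± 0.02 and Fgfr2 at -0.05 ± 0.06 over the tumours (SD, n = 6).

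**Figure D3:**
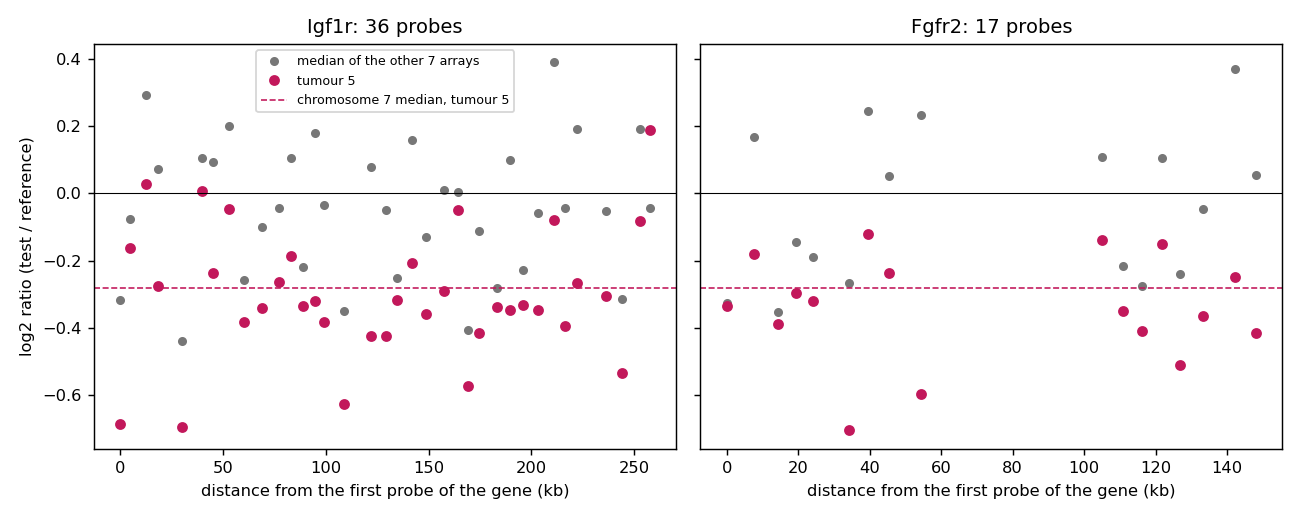
Log2 ratio of each probe of Igf1r (36 probes) and Fgfr2 (17 probes) against the distance in kb from the gene's first probe, in tumour 5 and as the median of the other 7 arrays; the dashed line is the chromosome 7 median in tumour 5, -0.28. The tumour 5 probes scatter around that line along the whole of both genes, with 3 Igf1r probes above 0 and no Fgfr2 probe above 0.

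The lower values ran along the length of both genes. Splitting the probes of each gene into an earlier and a later part by position, the later part of Igf1r differed from the earlier by -0.08 to 0.08 over the 8 arrays and that of Fgfr2 by -0.03 to 0.17, so neither gene showed a break as large as the drop in tumour 5. The probes at the middle of each gene are shown, as the scanner output gives them from 5′ to 3′, with G and C bases in capitals here and below.
Igf1r probe 19 (chr7:63949531-63949590): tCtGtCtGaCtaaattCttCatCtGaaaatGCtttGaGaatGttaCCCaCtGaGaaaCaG
Fgfr2 probe 9 (chr7:126333310-126333369): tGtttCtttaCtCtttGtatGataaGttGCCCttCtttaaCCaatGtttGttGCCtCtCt
The Igf1r probe read -0.32 in tumour 5 and the Fgfr2 probe -0.60. On the other arrays the Igf1r probe, with a brightness above 82.7% of probes, ran from -0.61 to 0.08. The Fgfr2 probe, brighter than only 15.6% of probes, was above 0 on all other arrays, at 0.04 to 0.61.

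Erbb3 codes for a receptor with a weak kinase that binds neuregulins and signals by pairing with Erbb2 or Egfr. It was the lowest receptor gene (chr10:128074794-128090569, 5 probes), at -0.32, -0.12, -0.25, -0.68, -0.26 and -0.43 in tumours 1 to 6, at -0.37 in normal liver of the FEAT mouse and at -0.05 in wild-type liver. The tumours overlapped the FEAT normal liver and all 7 FEAT arrays were below the wild-type liver, as they were for 13.9% of all genes. All 6 tumours were below 0, as for 15.5% of all genes. The difference between tumours and non-tumour livers was -0.13 (SE 0.15; limma, adjusted p = 0.9999). The median of the other chromosome 10 probes was -0.12 in tumour 5, where Erbb3 differed from it by -0.14, and lay between -0.01 and 0.06 on the other 7 arrays. With the chromosome taken off, Erbb3 stood at -0.33 ± 0.20 in tumours (SD, n = 6), and the segments that held it had means between -0.11 and 0.08 on the 8 arrays, none of them called.

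The 5 Erbb3 probes did not move as 1 unit. They are printed in order along the chromosome because the first 3 and the last 2 parted in tumour 6 and in the FEAT normal liver.
Erbb3 probe 1 (chr10:128074794-128074853): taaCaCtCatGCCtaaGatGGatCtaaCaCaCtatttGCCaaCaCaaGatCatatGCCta
Erbb3 probe 2 (chr10:128077785-128077844): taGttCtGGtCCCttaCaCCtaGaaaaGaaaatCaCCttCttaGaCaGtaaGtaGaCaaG
Erbb3 probe 3 (chr10:128083847-128083906): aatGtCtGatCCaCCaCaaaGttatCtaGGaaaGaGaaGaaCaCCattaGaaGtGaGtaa
Erbb3 probe 4 (chr10:128087914-128087960): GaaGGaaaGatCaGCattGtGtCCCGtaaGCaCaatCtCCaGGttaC
Erbb3 probe 5 (chr10:128090510-128090569): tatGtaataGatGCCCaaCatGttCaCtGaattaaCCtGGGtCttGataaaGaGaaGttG
Probes 1, 2 and 3 averaged -0.50, -0.35 and -0.50 over the tumours, and were below 0 on all 7 FEAT arrays, with the lowest value -1.09 for probe 1 in tumour 4. Probes 4 and 5 averaged -0.12 and -0.24; in tumour 6 they read 0.13 and 0.02, and in the FEAT normal liver 0.11 and 0.04. In tumour 1 all 5 were alike, between -0.38 and -0.27, and in tumour 2 probe 5 was the lowest at -0.21. In wild-type liver the 5 probes lay between -0.20 and 0.07.

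Most of these are bright spots. Probe 1 was brighter than 99.9% of autosomal probes on the wild-type array, probe 3 than 94.4%, probe 4 than 84.5% and probe 2 than 79.1%. Of the 5 probes, 3 lay in the brightest 20%. Probe 5 was brighter than only 57.3%. It read -0.43 to -0.21 in tumours 1 to 5, and -0.37 to -0.21 there with the brightness curve taken off. In tumour 6 it read 0.02 and 0.04. Brightness alone did not order the 5 probes, since probe 4 was brighter than probe 2 and stood at 0.13 in tumour 6 and 0.11 in the FEAT normal liver. With the brightness curve taken off, Erbb3 stood at -0.12 ± 0.09 in tumours (SD, n = 6), at -0.08 in normal liver of the FEAT mouse and at -0.00 in wild-type liver. Tumour 4 then stood at -0.25 and tumour 1 at -0.18. All 7 FEAT arrays were below the wild-type liver, as were 12.1% of genes. Tumour 2 and the wild-type liver were all but equal, at -0.0037 and -0.0024. The Erbb3 probes hold 39.4% G and C bases, against 42.6% in Fgfr4, 40.1% in Erbb2, 36.6% in Egfr and 35.5% in Met. After correction for base composition within 500 kb the tumour mean was -0.33, and -0.29 when the bases of each probe were corrected too. What else moved with the low values was not tested.

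**Figure D4:**
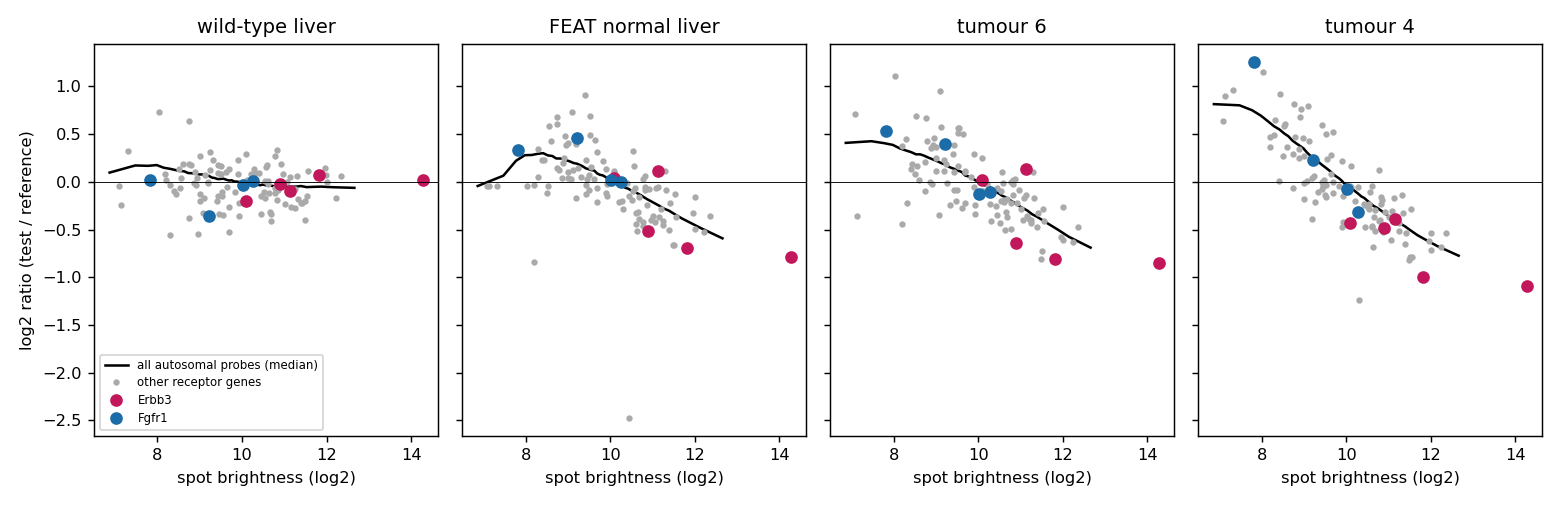
Log2 ratio of every receptor gene probe against spot brightness in 4 livers, ordered by how steeply the ratio falls. Brightness is the mean of the log2 signals of both colours on the wild-type array. The line is the median of all autosomal probes in bins of brightness. Erbb3 probes 1 to 3 lie below 0 in the FEAT normal liver, tumour 6 and tumour 4, the bright Erbb3 probe 4 lies above the line at 0.11 in the FEAT normal liver and 0.13 in tumour 6, and the dimmest Fgfr1 probe shown, at 1.26 in tumour 4, lies above the line by 0.52.

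The receptor probes as a whole showed the same slope. In tumour 4 the 25 receptor probes of the brightest 20% had a mean of -0.55 ± 0.24 (SD over probes), and 25 of 25 were below 0; the dimmest 20% had a mean of 0.59 ± 0.36, and 17 of 18 with a value were above 0. In the wild-type liver these means were -0.08 ± 0.15 and 0.05 ± 0.31. The brightest 20% held 3 of 5 probes of Erbb3, 3 of 6 of Kdr and 3 of 6 of Pdgfra, and none of Fgfr1 and Fgfr4.

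Fgfr1, the fibroblast growth factor receptor that is amplified in several human cancers, was the highest receptor gene before the brightness correction and came after Egfr with it. Its 5 probes (chr8:24290494-24322523), 4 of them with a value, gave 0.16, -0.01, 0.28, 0.27, 0.13 and 0.17 in tumours 1 to 6, 0.21 in normal liver of the FEAT mouse and -0.09 in wild-type liver. Every FEAT array was above the wild-type liver, as for 13% of genes, and the FEAT normal liver lay within the tumours. The difference between tumours and non-tumour livers was 0.11 (SE 0.11; limma, adjusted p = 0.9999). Probe 5, which lies at the gene's last position on the array and whose signal exceeds only 5.37% of probes, is printed beside probe 2, which is brighter than 62.5%.
Fgfr1 probe 2 (chr8:24299181-24299240): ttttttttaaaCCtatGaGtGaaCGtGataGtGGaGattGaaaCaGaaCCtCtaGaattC
Fgfr1 probe 5 (chr8:24322464-24322523): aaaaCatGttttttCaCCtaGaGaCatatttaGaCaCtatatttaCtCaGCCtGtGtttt
Probe 5 read 0.38, -0.01, 0.44, 1.26, 0.43 and 0.53 in tumours 1 to 6, whereas probe 2 read 0.06, -0.14, 0.11, -0.32, 0.11 and -0.11. The 2 probes lie within a single gene and differed by more than 1 log2 unit in tumour 4, where the SE over probes was 0.35. After the brightness correction Fgfr1 stood at 0.05 ± 0.08 in tumours (SD, n = 6) and at 0.10 in the FEAT normal liver, and the segments that held it stood between -0.03 and 0.08.

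**Figure D5:**
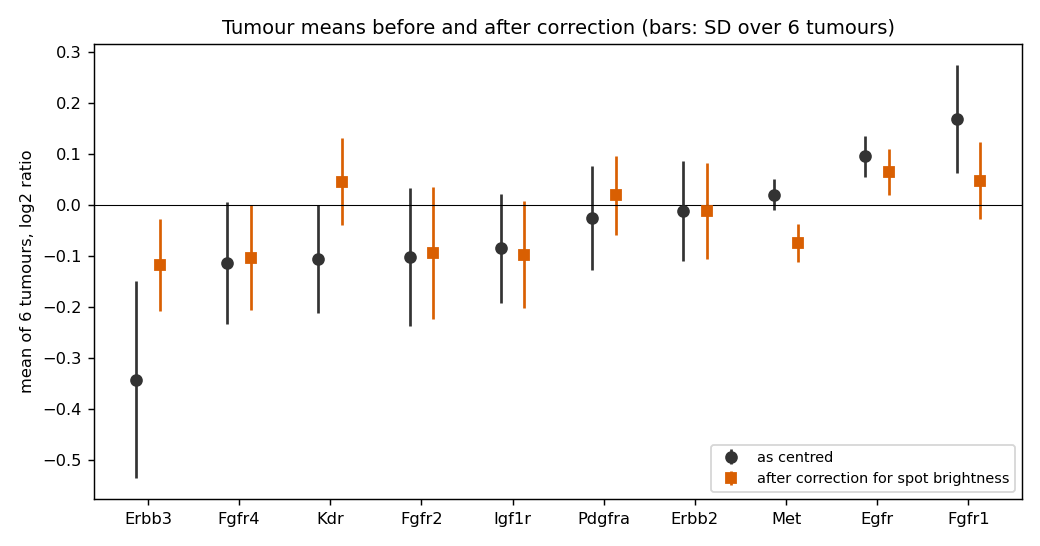
Mean log2 ratio of each receptor gene over 6 tumours before and after correction for spot brightness; bars are the SD over tumours. Erbb3 moves from -0.34 to -0.12, Fgfr1 from 0.17 to 0.05, Kdr from -0.11 to 0.05 and Met from 0.02 to -0.07, while Igf1r and Fgfr2 move by 0.02 or less.

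Fgfr4, with its partner beta-Klotho the receptor through which a gut-derived fibroblast growth factor lowers bile acid synthesis, had 3 probes (chr13:54238955-54248380). It stood at 0.06, -0.13, -0.06, -0.30, -0.10 and -0.15 in tumours 1 to 6, at -0.57 in normal liver of the FEAT mouse and at -0.00 in wild-type liver. The FEAT normal liver was lower than any tumour, and this rests on probe 2.
Fgfr4 probe 2 (chr13:54244509-54244568): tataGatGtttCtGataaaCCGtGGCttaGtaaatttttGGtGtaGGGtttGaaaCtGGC
Probe 2 read -2.48 in the FEAT normal liver and between -0.47 and -0.01 elsewhere, while probes 1 and 3 read 0.46 and 0.32 in that liver. The median over the 3 probes was 0.32 there, so the sign of the difference between tumours and non-tumour livers turns with the summary: it was 0.17 (SE 0.14) from means and -0.18 (SE 0.13) from medians, with limma's adjusted p = 0.9999 by means. In tumour 4 all 3 probes were low, at -0.21, -0.47 and -0.23. The nearest 100 probes on each side had a median of -0.27 there, against a chromosome 13 median of -0.06. The median of these flanking probes was below 0 on every array, the wild-type liver included at -0.058. After correction for base composition within 500 kb, Fgfr4 stood at -0.196 in tumour 4, short of the 0.2 level. The segment that held Fgfr4 in tumour 4 stood at -0.09 over 23.3 Mb and was not called. In tumour 5 it lay in a called loss of 1.34 Mb (chr13:53245435-54584055, 191 probes) whose mean was -0.20, at the limit of calling, and the chromosome stood at -0.13.

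Egfr, the receptor of epidermal growth factor and of transforming growth factor alpha, had 21 probes (chr11:16708664-16865021). Its means were 0.04, 0.10, 0.13, 0.06, 0.15 and 0.09 in tumours 1 to 6, 0.08 in normal liver of the FEAT mouse and -0.02 in wild-type liver. All 6 tumours were above 0, as for 14.1% of genes, and the FEAT normal liver fell among them. With the chromosome taken off Egfr stood at 0.10 ± 0.04 in tumours (SD, n = 6), and after brightness correction at 0.07 ± 0.04. The 11 later probes were lower than the 10 earlier ones on every array, the wild-type liver included, by a difference of -0.36 to -0.07. In tumour 1, probe 8 alone read -1.95, the lowest receptor probe in any tumour.
Egfr probe 8 (chr11:16759594-16759653): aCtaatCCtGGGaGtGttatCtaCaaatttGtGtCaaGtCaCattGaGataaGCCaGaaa
On the other 7 arrays this probe read between 0.07 and 0.57, and Egfr lay in no called segment on any array.

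Erbb2, a receptor with no known ligand that acts as a partner for the other Erbb proteins, lies on the same chromosome as Egfr (chr11:98525873-98542048, 4 probes). It stood at -0.13, -0.06, 0.15, -0.02, 0.04 and -0.06 in tumours 1 to 6, at 0.02 in normal liver of the FEAT mouse and at -0.04 in wild-type liver. Tumours lay on both sides of 0 and around both non-tumour livers, with a difference of -0.00 (SE 0.09). Probe 4 was low on all 8 arrays, from -0.68 in tumour 4 to -0.17 in the wild-type liver, and probe 3 was above 0 on all 7 FEAT arrays. Egfr exceeded Erbb2 in 5 of 6 tumours, by up to 0.17 in tumour 1, and chromosome 11 itself stood within 0.03 of 0 on every array.

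Met, the receptor of hepatocyte growth factor, was the receptor gene whose mean varied least between tumours. With the chromosome taken off, Met (SD 0.05) varied more than Igf1r (SD 0.02) and Egfr (SD 0.04). The 11 Met probes (chr6:17432787-17502638) gave 0.02, -0.02, 0.04, 0.04, -0.02 and 0.05 in tumours 1 to 6, 0.06 in normal liver of the FEAT mouse and -0.10 in wild-type liver. All 7 FEAT arrays were above the wild-type liver, as for 13% of all genes, and no tumour was above the FEAT normal liver. In tumour 5 the rest of chromosome 6 stood at -0.10 while Met stood at -0.02, a difference of 0.08 with an SE over probes of 0.09. After brightness correction the tumours averaged -0.07 ± 0.04 (SD, n = 6), and the sign of the tumour mean turned.

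Pdgfra and Kdr lie within 1 Mb of each other on chromosome 5 and code for receptors of platelet-derived growth factor and of vascular endothelial growth factor. Pdgfra (chr5:74576684-74615973, 6 probes) stood at 0.12, 0.06, -0.02, -0.13, -0.12 and -0.05 in tumours 1 to 6, at -0.24 in normal liver of the FEAT mouse and at 0.10 in wild-type liver. Kdr (chr5:75362751-75395807, 6 probes) stood at -0.05, -0.06, -0.24, -0.20, 0.05 and -0.14 in tumours 1 to 6, at -0.15 in normal liver of the FEAT mouse and at -0.10 in wild-type liver. The tumours overlapped the non-tumour livers for both genes, and chromosome 5 stood within 0.05 of 0 on all arrays. Although neighbours, the genes differed by 0.22 in tumour 3, with Pdgfra higher, and by -0.17 in tumour 5, with Pdgfra lower; probe 6, the highest of Pdgfra in the other tumours, had no value in tumour 5.

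In both genes the mean depended on a few probes at the end of the gene, printed for that reason with the Kdr probe that was low on every array.
Pdgfra probe 6 (chr5:74615914-74615973): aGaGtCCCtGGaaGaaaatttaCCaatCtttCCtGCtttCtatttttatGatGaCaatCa
Kdr probe 2 (chr5:75370223-75370282): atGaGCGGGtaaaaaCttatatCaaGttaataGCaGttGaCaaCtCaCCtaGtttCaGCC
Kdr probe 6 (chr5:75395748-75395807): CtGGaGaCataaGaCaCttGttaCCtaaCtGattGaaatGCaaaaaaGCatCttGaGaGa
Pdgfra probe 6 read 0.62 to 1.48 in the 5 tumours with a value, and 0.73 in the wild-type liver. In normal liver of the FEAT mouse it held -0.04, a value that 6670 probes of that array share exactly, most of them dim, and it is not read as a measurement here; without it Pdgfra stands at -0.28 there in place of -0.24. From the median over probes, Pdgfra stood at -0.20 in tumours, against -0.03 from the mean. Kdr probe 2 was below 0 on all 8 arrays, between -0.79 and -0.25, and -0.40 in the wild-type liver set against DNA of its own strain. Kdr probe 6 read 0.14 to 0.95 in tumours, 0.73 in normal liver of the FEAT mouse and -0.17 in wild-type liver. It is dimmer than Kdr probes 1 to 5, brighter than only 28.0% of probes, and Pdgfra probe 6 is brighter than only 7.54%. After brightness correction Kdr averaged 0.05 in tumours and Pdgfra 0.02. The difference between tumours and non-tumour livers was 0.02 (SE 0.10) for Kdr and 0.05 (SE 0.11) for Pdgfra, with limma's adjusted p = 0.9999 each.

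The genes that work around these receptors were read in the same way, from lists of other receptor tyrosine kinases, ligands, adaptors and inhibitors. The genes named as highest and lowest are so among the members of a list with at least 2 probes. None of the 98 listed genes measured passed limma. Of 23 other receptor tyrosine kinases, the highest tumour mean was that of Csf1r, the receptor of macrophage colony-stimulating factor, at 0.20 ± 0.16 (SD, n = 6), beside 0.24 and 0.29 in normal liver of the FEAT and wild-type mouse; after brightness correction it stood at 0.02 in tumours. The lowest was Mst1r, a relative of Met, at -0.15 ± 0.20, with -0.42 in tumour 5, and at -0.20 after the correction. Of their gene and tumour pairs, 10.1% were higher and 7.97% lower at 0.2, both under the backgrounds of 18.7% and 18.1%.

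Of 27 ligands, and among those with at least 2 probes, Fgf10 was the highest at 0.20 ± 0.09 and Hbegf, a ligand of Egfr, the lowest at -0.33 ± 0.06 (SD, n = 6). They stood at 0.07 and -0.16 after brightness correction. Hbegf was low on all arrays, at -0.38 in normal liver of the FEAT mouse and -0.12 in wild-type liver. Ligand pairs were higher in 9.88% and lower in 18.5%, against backgrounds of 18.7% and 18.1%. Of 25 adaptors and signal carriers, and again among those with at least 2 probes, Irs1, which carries the signal of Igf1r, was the highest at 0.26 ± 0.16 and Map2k2 the lowest at -0.15 ± 0.09; the brightness correction gave 0.17 and -0.01. Irs1 lies on chromosome 1 and stood at 0.47 in tumour 5, where Igf1r stood at -0.30. Adaptor pairs were higher in 22.0% and lower in 5.33%, against the same backgrounds of 18.7% and 18.1%. After brightness correction they were higher in 8.00% and lower in 10.0%, where the backgrounds were 11.3% and 16.5%.

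Of 23 inhibitors of receptor signalling, and among those with at least 2 probes, Spry1, which restrains fibroblast growth factor receptors, was the highest at 0.19 ± 0.08 and Cbl, which marks receptors for breakdown, the lowest at -0.12 ± 0.15 (SD, n = 6), and they stood at 0.06 and -0.08 after brightness correction. Inhibitor pairs were higher in 12.3% and lower in 15.2%, both under the backgrounds of 18.7% and 18.1%. The medians of the 4 lists lay between -0.01 and 0.08 in tumours, beside -0.06 for the receptor genes and 0.01 over all genes tested.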

How the data were processed

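DNA of 8 mouse livers was hybridised to Agilent 244A arrays, test in Cy3 and reference in Cy5, per the labels, with no dye swap. The deposited table holds log2 ratios. On the wild-type array, the only one whose scanner output was used, they equalled the deposited log10 ratio, red over green per the file headers, with its sign turned and its base changed (r = -1), so higher means more test DNA; on the other 7 arrays the direction rests on the labelled dyes, and over autosomal probes r ran from 0.264 to 0.760 in the 28 pairs. The deposited intensity values, from Feature Extraction 9.1.3.1 with spatial detrending per the file headers, gave spot brightness. The genome build was not given in the sources used; coordinates are the array's own, and exons and introns were not assigned.

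All 235406 rows matched a spot. Repeated spots were averaged and each array centred on its autosomal median, without loess. In the deposited table, 6670 probes of the FEAT normal liver share a single value and 293 of tumour 3 another; these were kept, and left out in an added alternative. Chromosomes were segmented by penalised least squares (penalty factor 2, at least 5 probes, called at 0.2). Gene means of 24413 genes were compared by limma (version 3.58.1, R version 4.3.3), with p adjusted after Benjamini and Hochberg and a threshold of 0.05; both scripts were tested on simulated data. The brightness correction took off the median ratio in 50 bins of brightness. Full statistics went to receptor genes in a called segment or at 0.2 on a tumour; from each list the genes with the highest and lowest tumour mean were named among those with at least 2 probes. Base composition was corrected within 500 kb. The genes, lists and rules were chosen with earlier results of these data known. Of the list genes, 12 were not found by name. The gene most alike Erbb2 is not reported here.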

Additional observations from a re-analysis of the deposited data

Results flagged for a closer look

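Igf1r in tumour 5 stood apart from the other tumours. Its gene mean of -0.300 was separated from the nearest tumour by 0.801 of the range of the 6 tumours, beyond Dixon's critical value for 6 samples, and the tumour median was -0.05. This was 1 of 20 groups of values examined, and chance alone gives 1. Fgfr2, also on chromosome 7, was lowest in tumour 5 as well without passing that limit, and with the chromosome level taken off neither gene stood apart.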

How the results depend on the processing

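With the FEAT normal liver as the only control, limma called 13 genes by gene mean and 15 with the chromosome taken off, none of them a receptor gene, against 0 with both controls. The lone liver is then assumed to vary like the tumours. All other alternatives called 0 genes. The count of receptor gene and tumour pairs at 0.2, 11 in all, was 4 after brightness correction and 15 from medians over probes. It was 28 at a threshold of 0.1 and 6 at 0.3, and 8 to 11 of fewer pairs with a tumour left out. With the chromosome taken off, the count of 9 became 2 after brightness correction, 11 from medians, 25 at 0.1 and 3 at 0.3. With a tumour left out it was 6 to 9, again of fewer pairs. The share over all genes was not taken at 0.1, at 0.3, from medians or with a tumour left out. Those counts therefore have no background and are not read as results about the receptor genes.

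Differences between tumours and non-tumour livers changed sign for 9 of 10 receptor genes under at least 1 alternative, all but Egfr, and the lowest adjusted p of a receptor gene under any alternative was 0.9997 (limma). With the FEAT normal liver alone as control, Met became -0.035, Fgfr1 -0.036, Fgfr2 0.016 and Erbb3 0.028. With the wild-type liver alone, Fgfr4 became -0.11, Erbb2 0.029, Pdgfra -0.12 and Kdr -0.0067. From medians over probes, Fgfr4 became -0.18, Pdgfra -0.082 and Kdr -0.0069. Centring on the mode gave Igf1r 0.0089 and Erbb2 0.042. Erbb2 was 0.012 as deposited, 0.012 and 0.028 after the corrections for base composition within 500 kb and then of each probe, and 0.0064 after brightness correction. With each tumour left out in turn, Erbb2 ran from -0.034 to 0.022, Igf1r from -0.049 to 0.0087 and Kdr from -0.014 to 0.044; Igf1r and Kdr changed sign only without tumour 5. The cause was not tested. The corrections for brightness and for the bases of each probe, and leaving out the values that many probes of an array share, were added after the data were seen; the last reversed no difference, and 5 receptor probes held such a value in the FEAT normal liver and 1 in tumour 3. No paired analysis was possible because the non-tumour livers came from mice of other ages than the tumours. Signal over background and the probe number limit genes of few probes most: 1 of 5 Fgfr1 probes had no value on any array.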

Other observations

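The pattern of 9 of the receptor genes over the 8 arrays was set against genes on other chromosomes with at least 5 probes, between 7045 and 7237 genes for each. All arrays share the reference DNA and 7 share the FEAT background, so these likenesses are descriptions. Igf1r was most alike Arhgap20 on chromosome 9 (r = 0.997), with 135 genes above 0.9. Fgfr2 was most alike AK084170, also on chromosome 9 (r = 0.977), with 96 genes above 0.9. Tumour 5 was the lowest array for both Igf1r, at -0.30, and Fgfr2, at -0.34, and weighs most in their r values. Erbb3 was most alike 9830102E05Rik on chromosome 6 (r = 0.967), with 47 genes above 0.9. For Met the gene was Nbn on chromosome 4 (r = 0.977, 14 genes above 0.9) and for Fgfr1 4933437K13Rik on chromosome 16 (r = 0.971, 20 genes). For Pdgfra it was Slc5a4b on chromosome 10 (r = 0.963, 8 genes) and for Kdr AK178537 on chromosome 1 (r = 0.959, 23 genes). The values were 0.954 for Fgfr4 with Evc2 on chromosome 5 (5 genes) and 0.945 for Egfr with Qscn6 on chromosome 1 (10 genes). Each r is the highest of its search, and how many genes would pass 0.9 by chance was not tested.

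Among the listed genes around the receptors, Grb2, an adaptor that links receptors to Ras, and Spry1 had an unadjusted limma p under 0.05, that is 2 of 98 against 2.52% of all genes tested, so the share was near the background. Grb2 stood at 0.09 ± 0.08 in tumours (SD, n = 6) and was higher in both non-tumour livers, at 0.26 and 0.31; after brightness correction it stood at 0.01 in tumours. Spry1 stood at 0.19 ± 0.08 in tumours and at 0.02 and -0.09 in the non-tumour livers. Neither passed after adjustment over all genes.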
